A study of Homo sapiens with 12 samples.

Results

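The CDK inhibitor family was described across 4 groups of polyA RNA libraries from HCT116, a line of human colorectal carcinoma cells. The members were taken by gene name: CDKN1A, CDKN1B and CDKN1C of the CIP/KIP branch, and CDKN2A, CDKN2B, CDKN2C and CDKN2D of the INK4 branch. All 7 were listed, among 23195 genes in the tables for Nutlin-3a, 20026 in the table for siRFX7 in DMSO and 19393 in the table for siRFX7 in Nutlin-3a. Cells were transfected with siControl, a control siRNA, or with siRFX7, an siRNA against the transcription factor RFX7. They received 10 µM Nutlin-3a, or DMSO as its solvent, over 24 h. Each of the 4 combinations of siRNA and treatment had 3 libraries. All of them came from one cell line carrying a transfected siRNA. How many different siRNAs against RFX7 were used is not given in the sources used here, nor whether the 3 libraries of a group were separate cultures, so the p-values may measure technical spread only.

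CDK inhibitors are small proteins that bind cyclin-dependent kinases and hold cells out of the division cycle. The INK4 proteins bind CDK4 and CDK6 and keep D-type cyclins away from them. The CIP/KIP proteins bind whole cyclin-kinase complexes, above all those of CDK2. Nutlin-3a blocks MDM2, the ubiquitin ligase that degrades p53, and CDKN1A is the main p53 target gene through which p53 arrests the cycle. Family members are controlled at several levels, and CDKN1B protein in particular is set largely by its degradation, which RNA does not show.

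In bulk RNA, fewer cells of a type and less RNA per cell cannot be told apart. The deposited values are comparisons between groups, so no value per library can be given. Group means were recovered from each gene's mean normalized count and its fold changes, where a normalized count is a read count divided by the library's size factor. Recovered depth averaged between 26641774 and 27274907 counts per library in the 4 groups. RFX7, the siRNA target, was at 19.6% of its siControl level in DMSO and at 22.6% in Nutlin-3a, computed from the authors' deposited tables. Of 10 epithelial markers 9 were listed, and their group means summed to 125958 (DMSO) and 283336 (Nutlin-3a) normalized counts with siControl and to 119939 and 222329 with siRFX7. With Nutlin-3a 7 of the 9 were called higher and 1 lower under siControl, and 8 and 1 under siRFX7. Over all genes 22.0% and 21.7% were called higher. EPCAM was the lower one, with log2 changes of -0.51 and -0.63 in the authors' deposited tables. KRT8, KRT18 and KRT19 had the largest means in each group. In siControl these were 54817, 26303 and 27288 under DMSO and 121100, 49970 and 88124 under Nutlin-3a. The part of these markers in the results was not tested. Of 12 markers of blood, endothelial and mesenchymal cells 8 were listed, and the 5 with group means summed to 520 (DMSO) and 1316 (Nutlin-3a) with siControl and to 937 and 1695 with siRFX7. PTPRC, CD3E, CD68 and PECAM1 of that list were not listed in the tables. Without ACTA2, a smooth muscle actin gene, these sums were 424, 383, 554 and 548 over 4 genes, and their part in the results was not tested.

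Sequences before gene starts are shown for CDKN1A and CDKN2B, the members that rose with Nutlin-3a, and for CDKN2C, the member that fell most. CDKN2D is shown as the only searched member holding a match to an RFX half-site. CDKN1C had no promoter entry and was not searched. The sequences are from RefSeq (GRCh38.p14), 5′ to 3′ on the gene's strand. Each is the longest part of the 250 bases before a start that lies outside every exon annotated by GENCODE. The CDKN1A stretch lies within the interval of the gene, which has further starts upstream. Capitals mark GGGCGG or its reverse complement (an SP1-type GC box), CACGTG (an E-box) and GTTGCCA (an RFX half-site).
CDKN1A, chr6:36678560-36678657, plus strand: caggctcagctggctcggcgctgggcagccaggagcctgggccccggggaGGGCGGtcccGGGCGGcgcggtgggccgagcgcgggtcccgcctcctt
CDKN2B, chr9:22009364-22009555, minus strand: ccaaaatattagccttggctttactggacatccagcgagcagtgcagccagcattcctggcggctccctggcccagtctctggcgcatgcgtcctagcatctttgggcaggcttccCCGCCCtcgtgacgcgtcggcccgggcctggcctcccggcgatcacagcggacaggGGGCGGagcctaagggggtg
CDKN2C, chr1:50960495-50960744, plus strand, the most upstream of 3 starts: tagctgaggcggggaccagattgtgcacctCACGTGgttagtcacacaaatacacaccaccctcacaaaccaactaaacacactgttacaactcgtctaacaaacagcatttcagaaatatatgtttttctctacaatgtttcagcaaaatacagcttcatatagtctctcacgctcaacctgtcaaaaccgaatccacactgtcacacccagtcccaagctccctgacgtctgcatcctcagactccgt
CDKN2D, chr19:10569060-10569229, minus strand: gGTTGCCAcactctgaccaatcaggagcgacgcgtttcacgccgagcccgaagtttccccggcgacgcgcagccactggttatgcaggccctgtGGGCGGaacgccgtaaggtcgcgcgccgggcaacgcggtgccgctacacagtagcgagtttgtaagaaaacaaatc

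Over the full 250 bases, CDKN1A had 4 GGGCGG matches, and the GC-rich second start of CDKN2C (77.2% G+C) had 5, with matches that overlap each other counted separately. GGGCGG was in 42.6% of all 35116 promoters of that length, searched on both strands. CACGTG was in 6.34% of them and stood before the first and the third start of CDKN2C. GTTGCCA was in 3.49% of promoters. Among the 6 members searched it stood only before CDKN2D, at positions -249 to -243 from the start. TATAAA (in 10.7% of promoters), TTTGAA (13.3%), TTCGAA (1.19%) and the p53 half-site (5.57%) matched before none of the 6 members with a promoter in the table. These are letters found in the sequence, not measured binding, and sites farther from the start were not searched.

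CDKN1A encodes p21, which inhibits CDK2 complexes and binds PCNA. The CDKN1A mean with siControl was 5493 ± 258 normalized counts under DMSO (standard error, 3 libraries a group, here and for the other members) and 121149 ± 5611 under Nutlin-3a. With siRFX7 the mean was 13389 ± 623 under DMSO and 154897 ± 7174 under Nutlin-3a. Both Nutlin-3a groups stood above both DMSO groups, and under each treatment siRFX7 stood above siControl. The dispersion recovered from the standard errors corresponds to a coefficient of variation of 8.02% between libraries of a group. This is a model value, the same for every group, and not a spread measured between libraries. With Nutlin-3a CDKN1A rose by 4.46 on the log2 scale in siControl (standard error 0.10, adjusted p listed as 0) in the authors' deposited table, a 22.1-fold rise (95% interval 19.4 to 25.1). In siRFX7 it rose by 3.53 (standard error 0.09, DESeq2 adjusted p 6.46e-302) in the authors' deposited table, or 11.6-fold (10.2 to 13.2). Among 12463 genes with a mean of at least 100 normalized counts, it ranked 6 from the top by this log2 change in siControl and 9 in siRFX7.

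CDKN1A was the only member higher with siRFX7. Under DMSO its log2 difference from siControl was 1.29 (standard error 0.10, DESeq2 adjusted p 5.01e-39) in the authors' deposited table, which is 2.44-fold (2.14 to 2.77). In Nutlin-3a the log2 difference was 0.35 (standard error 0.09, DESeq2 adjusted p 0.00117) in the authors' deposited table, or 1.28-fold (1.12 to 1.45). With a t distribution with 8 degrees of freedom in place of the normal distribution, its adjusted p was 0.0373.

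On the log2 scale the Nutlin-3a effect on CDKN1A differed between the siRNAs, and in normalized counts the estimated difference had the opposite direction. On the log2 scale the change in siRFX7 was smaller than that in siControl by 0.93 (difference -0.93, standard error 0.13, adjusted p 7.17e-10 by a z test over 23195 genes). This test of the difference between 2 fold changes called 6.20% of genes. With the t distribution in place of the normal one, the adjusted p for CDKN1A was 0.0210. In normalized counts, CDKN1A gained 115656 in siControl (standard error 5617) and 141508 in siRFX7 (standard error 7201). The gain in siRFX7 was larger by 25852 (95% interval 7952 to 43751, adjusted p 0.0487 by a z test over 20026 genes, of which 9.62% were called, 6.76% above 0). This second test was added after the values were seen and lies close to the threshold. No adjusted p with the t distribution is given for it.

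**Figure D1:**
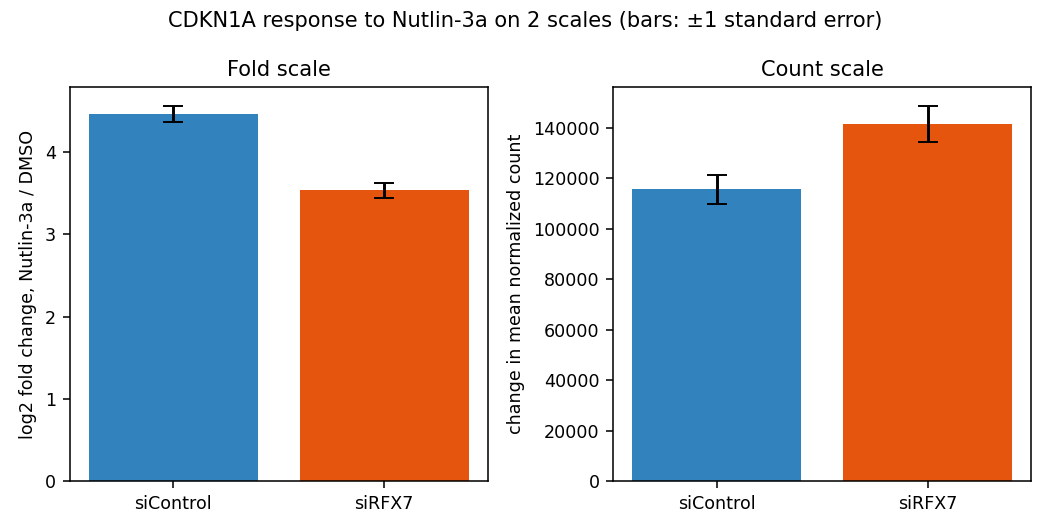
Response of CDKN1A to Nutlin-3a in siControl and siRFX7 as a log2 fold change (left panel, 4.46 and 3.53) and as a change in mean normalized count (right panel); error bars are 1 standard error. The siRFX7 bar is the lower of the pair on the fold scale and the higher of the pair on the count scale.

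CDKN1B encodes p27, which inhibits CDK2 complexes and is known from resting cells. The CDKN1B mean with siControl was 1321 ± 39.6 normalized counts under DMSO and 795 ± 26.0 under Nutlin-3a. In siRFX7 libraries it was 1070 ± 32.9 under DMSO and 692 ± 23.3 under Nutlin-3a. It was highest in siControl DMSO and lowest with both treatments, and neighbouring groups in that order differed by at least 0.20 on the log2 scale. With Nutlin-3a it fell in the authors' deposited tables, with log2 changes of -0.73 under siControl (standard error 0.06, DESeq2 adjusted p 4.18e-29) and -0.63 under siRFX7 (standard error 0.07, adjusted p 1.35e-20). Against siControl it was lower with siRFX7 in the authors' deposited tables, by a log2 difference of -0.30 under DMSO (standard error 0.06, DESeq2 adjusted p 1.05e-05) and -0.20 under Nutlin-3a (standard error 0.07, adjusted p 0.0143). The call in Nutlin-3a was lost when the normal distribution was replaced by a t distribution with 8 degrees of freedom (adjusted p 0.0833).

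CDKN1C encodes p57, the third CIP/KIP inhibitor, from an imprinted locus. The CDKN1C mean with siControl was 373 ± 22.4 normalized counts under DMSO and 246 ± 15.7 under Nutlin-3a. With siRFX7 the mean was 257 ± 16.1 under DMSO and 226 ± 14.6 under Nutlin-3a. SiControl DMSO stood above the other 3 groups, and neighbours among those 3 differed by no more than 1 standard error of their log2 difference. CDKN1C fell by 0.60 on the log2 scale with Nutlin-3a in siControl (standard error 0.13, DESeq2 adjusted p 7.93e-06) in the authors' deposited table. In siRFX7 its log2 change was -0.19 (standard error 0.13, DESeq2 adjusted p 0.262) in the authors' deposited table, with a 95% interval of -0.44 to 0.07. With siRFX7 it fell by 0.54 in DMSO (standard error 0.13, DESeq2 adjusted p 0.000156) in the authors' deposited table. In Nutlin-3a its log2 difference between siRFX7 and siControl was -0.12 (standard error 0.13, DESeq2 adjusted p 0.551) in the authors' deposited table. The Nutlin-3a changes under the 2 siRNAs differed by 0.41 (95% interval 0.06 to 0.77), which the z test did not call (adjusted p 0.193).

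**Figure D2:**
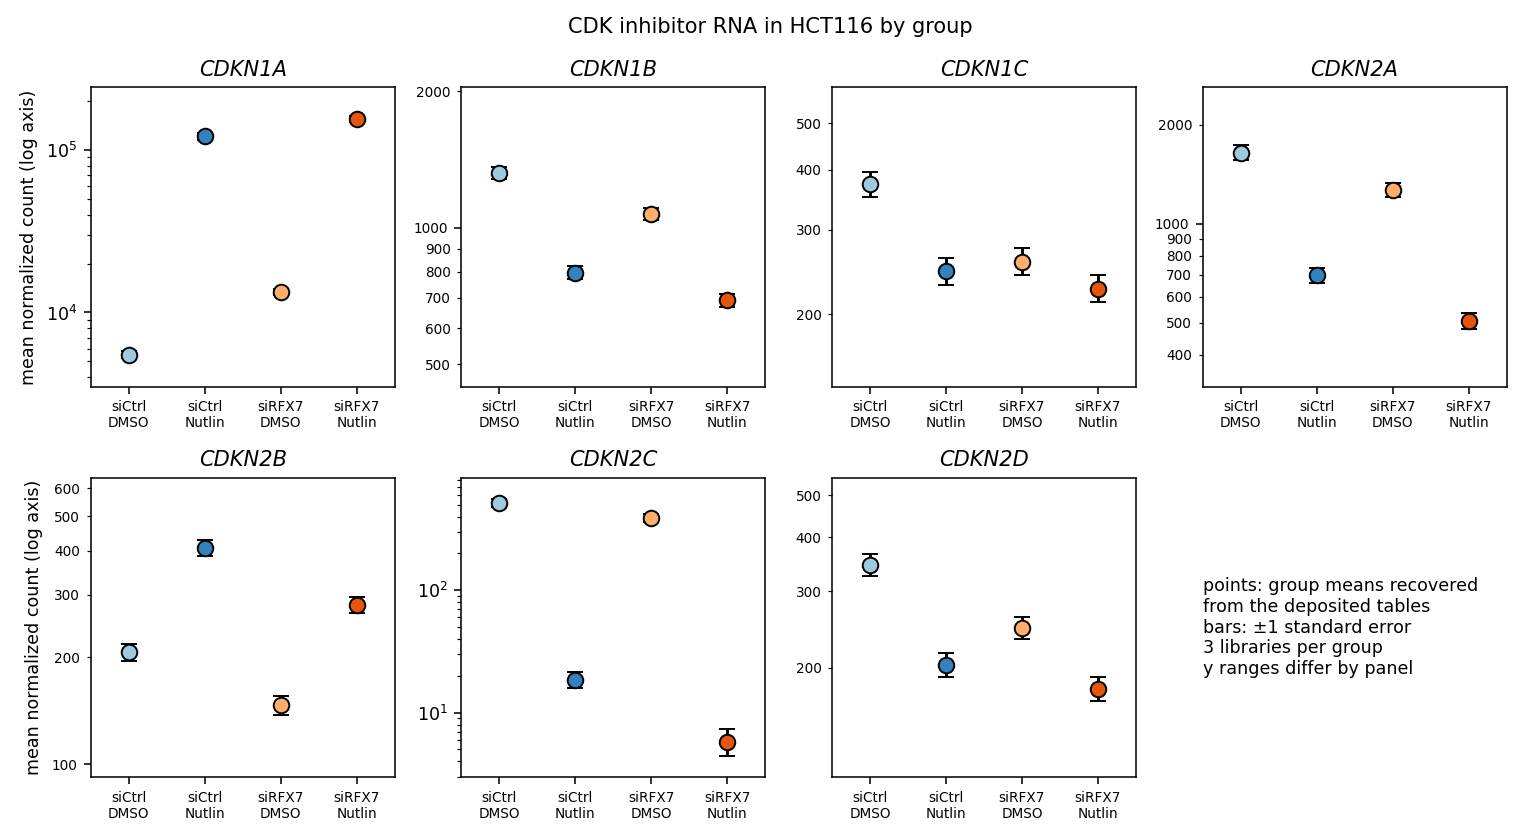
Recovered mean normalized count (log axis, ranges differ by panel) of each of the 7 CDK inhibitor genes in the 4 groups of 3 libraries; bars are 1 standard error. CDKN1A and CDKN2B are higher with Nutlin-3a (CDKN1A 5493 against 121149 in siControl), and CDKN2C falls from 513 to 18.6 in siControl.

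CDKN2A encodes p16 and, from another first exon and reading frame, ARF, an inhibitor of MDM2, and counts per gene do not separate these products. The CDKN2A mean with siControl was 1643 ± 84.7 normalized counts under DMSO and 697 ± 37.8 under Nutlin-3a. In siRFX7 libraries it was 1265 ± 65.8 under DMSO and 508 ± 28.4 under Nutlin-3a. Both Nutlin-3a groups stood below both DMSO groups. With Nutlin-3a it fell in the authors' deposited tables, with log2 changes of -1.24 under siControl (standard error 0.11, DESeq2 adjusted p 3.32e-29) and -1.32 under siRFX7 (standard error 0.11, adjusted p 1.16e-31). Against siControl it was lower with siRFX7 in the authors' deposited tables, by a log2 difference of -0.38 under DMSO (standard error 0.11, DESeq2 adjusted p 0.00219) and -0.46 under Nutlin-3a (standard error 0.11, adjusted p 0.000377). The difference between its 2 Nutlin-3a changes was -0.08 (95% interval -0.38 to 0.22).

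CDKN2B encodes p15, known as a target of TGF-beta signalling, and lies beside CDKN2A on chromosome 9. The CDKN2B mean with siControl was 206 ± 11.8 normalized counts under DMSO and 407 ± 20.2 under Nutlin-3a. With siRFX7 the mean was 146 ± 9.01 under DMSO and 281 ± 14.9 under Nutlin-3a. It was the only member besides CDKN1A that was higher with Nutlin-3a, and the only member that rose with Nutlin-3a and fell with siRFX7. With Nutlin-3a it rose in the authors' deposited tables, with log2 changes of 0.98 under siControl (standard error 0.11, DESeq2 adjusted p 2.19e-18) and 0.94 under siRFX7 (standard error 0.12, adjusted p 1.08e-14). Against siControl it was lower with siRFX7 in the authors' deposited tables, by a log2 difference of -0.50 under DMSO (standard error 0.12, DESeq2 adjusted p 0.000317) and -0.54 under Nutlin-3a (standard error 0.10, adjusted p 3.69e-06). The difference between its 2 Nutlin-3a changes was -0.04 (95% interval -0.35 to 0.27). CDKN2A and CDKN2B are paralogs, and 31 of the 4051 stretches of 50 bases in CDKN2B transcripts (0.765%) also stand in CDKN2A transcripts, so reads there are uncertain.

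CDKN2C encodes p18, an inhibitor of CDK4 and CDK6, and showed the largest fall of the family with Nutlin-3a under both siRNAs. The CDKN2C mean with siControl was 513 ± 38.1 normalized counts under DMSO and 18.6 ± 2.83 under Nutlin-3a. In siRFX7 libraries it was 390 ± 29.4 under DMSO and 5.72 ± 1.44 under Nutlin-3a. The last of these stood above the 3.03 normalized counts that 3 reads per library make. With Nutlin-3a it fell in the authors' deposited tables, with log2 changes of -4.79 under siControl (standard error 0.24, DESeq2 adjusted p 3.19e-84) and -6.09 under siRFX7 (standard error 0.38, adjusted p 2.25e-56). These are 27.6-fold and 68.2-fold falls, which ranked 49 and 32 from the bottom among the 12463 genes with a mean of at least 100. With siRFX7 in Nutlin-3a it fell by 1.70 (standard error 0.42, DESeq2 adjusted p 0.000462) in the authors' deposited table. In DMSO it fell by 0.40 (standard error 0.15, DESeq2 adjusted p 0.0347) in the authors' deposited table. That DMSO call was lost with the t distribution (adjusted p 0.118) and with group totals made equal (0.0815). The difference between its 2 Nutlin-3a changes was -1.30 (standard error 0.45, adjusted p 0.0587 by the z test), and was called when only genes with a mean of at least 10 were tested (0.0437) or only genes in all 4 tables (0.0493).

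CDKN2D encodes p19, the fourth INK4 inhibitor, whose promoter holds the GTTGCCA match shown above. The CDKN2D mean with siControl was 345 ± 19.7 normalized counts under DMSO and 203 ± 12.7 under Nutlin-3a. With siRFX7 the mean was 247 ± 14.7 under DMSO and 179 ± 11.5 under Nutlin-3a. SiControl DMSO was highest, and the 2 Nutlin-3a groups were lowest. With Nutlin-3a it fell in the authors' deposited tables, with log2 changes of -0.77 under siControl (standard error 0.12, DESeq2 adjusted p 2.18e-09) and -0.46 under siRFX7 (standard error 0.13, adjusted p 0.000885). With siRFX7 it fell by 0.48 in DMSO (DESeq2 adjusted p 0.000366) in the authors' deposited table. In Nutlin-3a its log2 difference was -0.18 (standard error 0.13, DESeq2 adjusted p 0.327) in the authors' deposited table, with a 95% interval of -0.44 to 0.07. The difference between its 2 Nutlin-3a changes was 0.30 (95% interval -0.04 to 0.65).

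Counted together, with Nutlin-3a 2 of the 7 members rose and 5 fell under siControl in the authors' deposited table, where 22.0% of all genes rose and 21.2% fell (43.2% called). Under siRFX7, 2 rose and 4 fell in the authors' deposited table, against 21.7% and 19.7% of all genes (41.4% called). With siRFX7 in DMSO, 1 rose and 6 fell in the authors' deposited table, against 13.5% and 15.5% of all genes. In Nutlin-3a, 1 rose and 4 fell in the authors' deposited table, against 15.0% and 13.6% of all genes. The median log2 change of the members was -0.73, -0.46, -0.40 and -0.20 in these 4 comparisons, and that of all genes lay between -0.02 and 0.02. The 4 comparisons share groups pairwise, so their counts are not independent. The 6 falls with siRFX7 in DMSO lay between 0.30 and 0.54 on the log2 scale, and none of them reached 0.58. For siRFX7 in DMSO 46.5% of all calls were higher, and 60.0% with group totals made equal, where 1 member was called higher and 5 lower. The same scaling took the higher share of all Nutlin-3a calls from 51.0% to 48.3% under siControl and from 52.3% to 45.8% under siRFX7, with 2 members higher and 5 and 4 lower as before. Of the 7 members, 1 had a called difference between its Nutlin-3a changes, CDKN1A with a negative one, against 3.28% of all genes called above 0 and 2.92% below 0. All 7 members had a mean of at least 10 normalized counts. Among the 16959 such genes, 9877 (siControl) and 9466 (siRFX7) were called for Nutlin-3a. For siRFX7 5890 (DMSO) and 5617 (Nutlin-3a) of them were called, and 1575 for the difference.

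**Figure D3:**
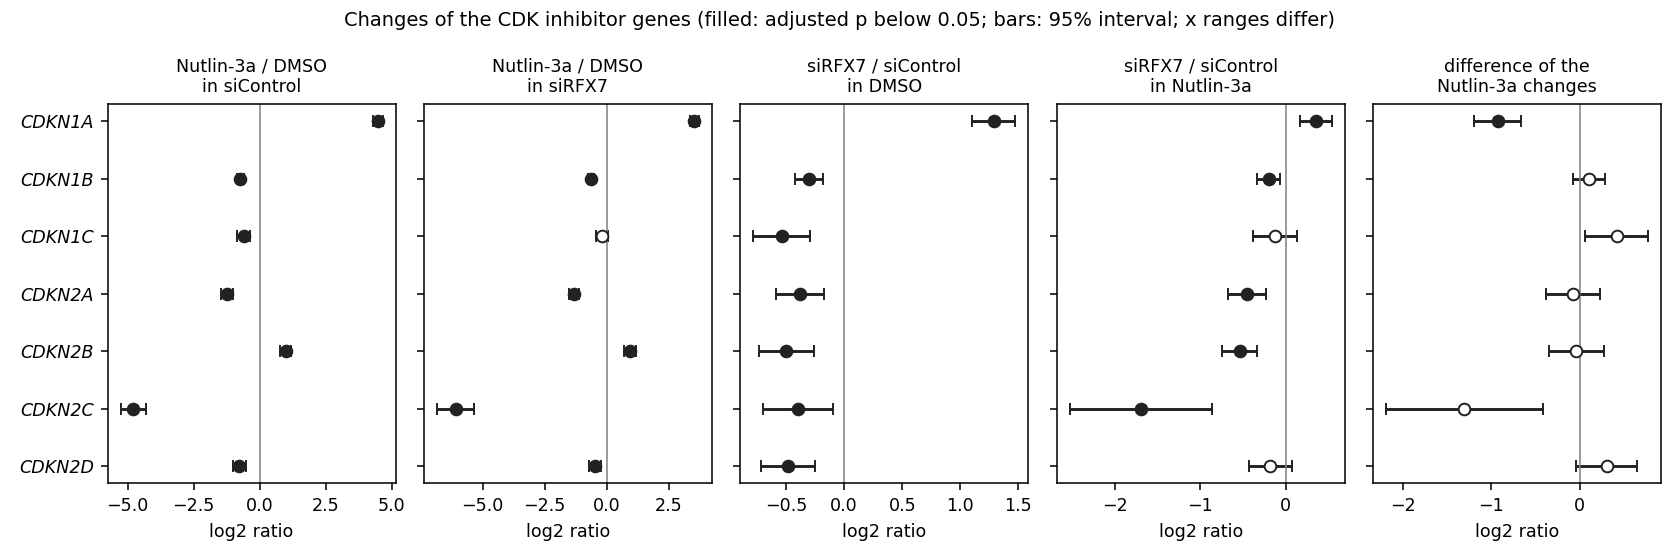
Log2 ratios of the 7 members in the 4 comparisons and the difference of the 2 Nutlin-3a changes (x axes, ranges differ), with 95% intervals; filled points passed an adjusted p of 0.05. In the siRFX7 comparison in DMSO only CDKN1A lies above 0, at 1.29, and in the last panel only CDKN1A is filled, at -0.93.

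Per kilobase of the union of exons, CDKN1A held most of the family's RNA in every group. Levels were divided by this union, from GENCODE release 29, to allow for differences in gene length. In siControl DMSO the normalized count per kilobase was 1801 for CDKN1A, 470 for CDKN1B, 379 for CDKN2A, 229 for CDKN2D, 155 for CDKN2C, 151 for CDKN1C and 50.9 for CDKN2B. CDKN2C and CDKN1C stood within 1 standard error of each other in that order (11.5 and 9.03). CDKN1A was 55.7% of the sum of the 7 members in siControl DMSO, 80.0% in siRFX7 DMSO, 98.1% in siControl Nutlin-3a and 98.7% in siRFX7 Nutlin-3a. With the longest transcript as the length, the siControl DMSO share was 49.8% and CDKN2A, at 1280 per kilobase, stood above CDKN1B, at 497. Among 13667 protein-coding genes ranked per kilobase, CDKN1A was at place 587 (siControl) and 168 (siRFX7) under DMSO, and at 4 and 5 under Nutlin-3a.

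The sum of the other 6 members, for which no test was made, was lower with Nutlin-3a under both siRNAs. Per kilobase it was 1435 (DMSO) and 784 (Nutlin-3a) with siControl, and 1095 and 645 with siRFX7. CDKN2C made up 10.8% of this sum in siControl DMSO and 0.716% in siControl Nutlin-3a. CDKN2B made up 3.54% and 12.8%, and so passed CDKN2C in this order. These sums and shares depend on the length used. CDKN2A in siControl DMSO was at 379 per kilobase with the union of exons and at 1280 with the longest transcript.

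**Figure D4:**
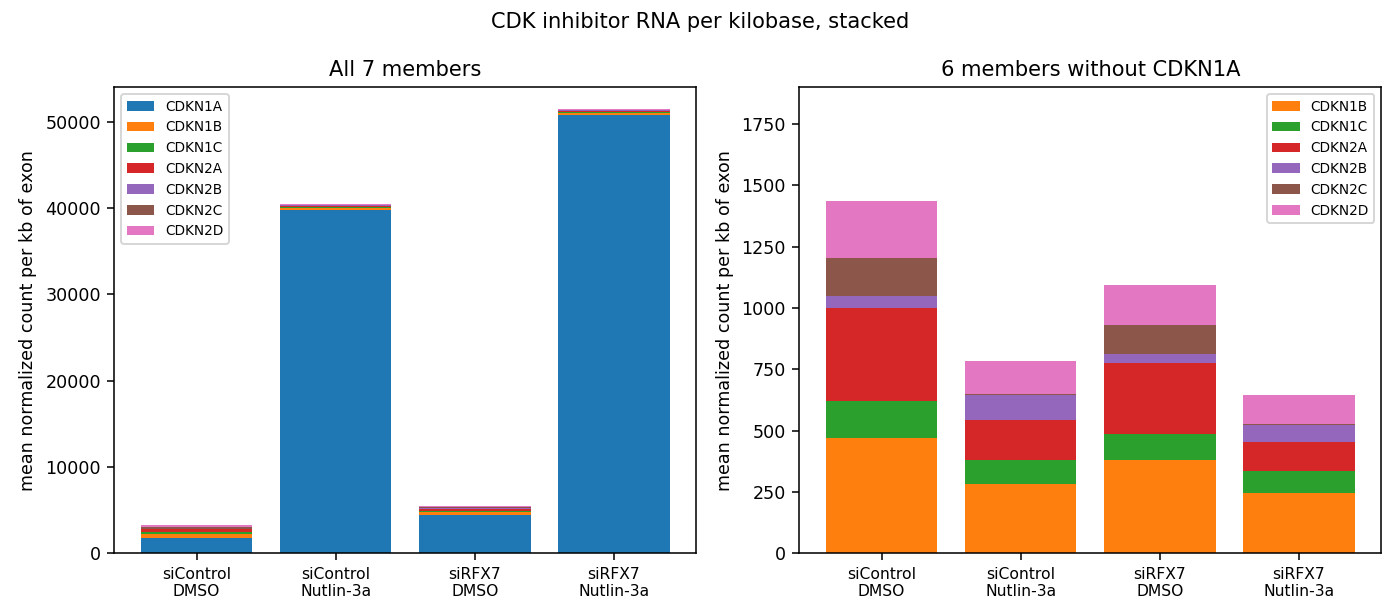
Mean normalized count per kilobase of exon, stacked by member, in the 4 groups, for all 7 members (left) and without CDKN1A (right, another y range). CDKN1A fills 98.1% of the siControl Nutlin-3a bar, and the sum of the other 6 is 1435 in siControl DMSO and 784 in siControl Nutlin-3a.

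Some members share sequence with genes on the other strand, and the strand setting of the counting is not given in the sources used here. CDKN1A (ENSG00000124762, chromosome 6, 36676460 to 36687339, plus strand, GRCh38) shares 146 exon bases with DINOL, a noncoding gene listed with a mean of 1.15 normalized counts. CDKN2A (ENSG00000147889, chromosome 9, 21967753 to 21995301, minus strand) shares 341 exon bases with the antisense gene CDKN2B-AS1, listed with a mean of 6.03. CDKN2B (ENSG00000147883, chromosome 9, 22002903 to 22009363, minus strand) lies within CDKN2B-AS1 and shares no exon base with it. For CDKN1C (chromosome 11, 2883213 to 2885773, minus strand), CDKN2C (chromosome 1, 50960745 to 50974633, plus strand) and CDKN2D (chromosome 19, 10566462 to 10569059, minus strand), no other annotated gene overlaps. CDKN1B (chromosome 12, 12715058 to 12722371, plus strand) contains a sense intronic transcript that shares no exon base with it.

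The genes with the most similar pattern were found by the distance between the 4 log2 group means, each centred on its own mean, among 12463 genes with a mean of at least 100. For CDKN1A they were PTAFR (distance 0.36), ABCA12 (0.46), AKR1B10 (0.48), TP53I3 (0.49) and NECTIN4 (0.53). TP53I3, a known p53 target, had log2 changes with Nutlin-3a of 5.10 (siControl) and 3.78 (siRFX7), from the authors' deposited tables. For CDKN2C they were the mitotic kinase genes AURKB (0.02) and PLK1 (0.15) and the spindle-associated gene HMMR (0.11). AURKB changed by -4.79 and -6.09 with Nutlin-3a in the authors' deposited tables, beside -4.79 and -6.09 for CDKN2C. CDKN1B was nearest to GTF3C5, SRSF4 and RHOBTB3, CDKN2A to NDOR1, RIMKLA and IRX4, CDKN1C to TBC1D2B, and CDKN2D to MICB and C7orf50, at distances of 0.03 to 0.09. The other nearest entries were the pseudogene CNOT6LP1 and the short entry MIR4444-2 for CDKN1C, the pseudogenes KRT18P15 and KRT18P38 and the unclassified AL132656.4 for CDKN2B, and the pseudogene HNRNPCP6 for CDKN2D, whose counts are uncertain. Among the members themselves the closest pair was CDKN1B and CDKN2D (0.14) and the farthest CDKN1A and CDKN2C (9.62). These distances rest on 4 group means and are descriptions.

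The kinases, cyclins and PCNA that CDK inhibitor proteins bind were called lower more often than higher with Nutlin-3a. Of 13 partner genes 11 were listed, of which, from the authors' deposited tables, 2 rose and 9 fell under siControl and 2 rose and 7 fell under siRFX7, with medians of -0.62 and -0.81. Over all genes 22.0% rose and 21.2% fell under siControl, and 21.7% and 19.7% under siRFX7. With siRFX7, from the authors' deposited tables, 1 rose and 5 fell under DMSO (13.5% and 15.5% of all genes) and 3 rose and 7 fell under Nutlin-3a (15.0% and 13.6%). From the authors' deposited tables, CCNA2 (cyclin A2) had log2 changes of -5.23 under siControl and -6.06 under siRFX7, and CCNB1 (cyclin B1) had -3.83 and -4.83. CCND1 (cyclin D1), a partner of CDK4 and CDK6, had log2 changes of 1.61 and 0.83, and CDK2 of -2.14 and -1.77, from the authors' deposited tables. PCNA had log2 changes of -0.34, which was called, and 0.05, which was not, from the authors' deposited tables. The difference between the Nutlin-3a changes was called for 5 of the 11 partners by the z test, against 6.20% of all genes, at -0.999 for CCNB1, -0.83 for CCNA2, -0.78 for CCND1, 0.39 for PCNA and 0.38 for CDK2. All 11 partners had a mean of at least 10 normalized counts, and of the 16959 genes at that level 1575 were called.

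**Figure D5:**
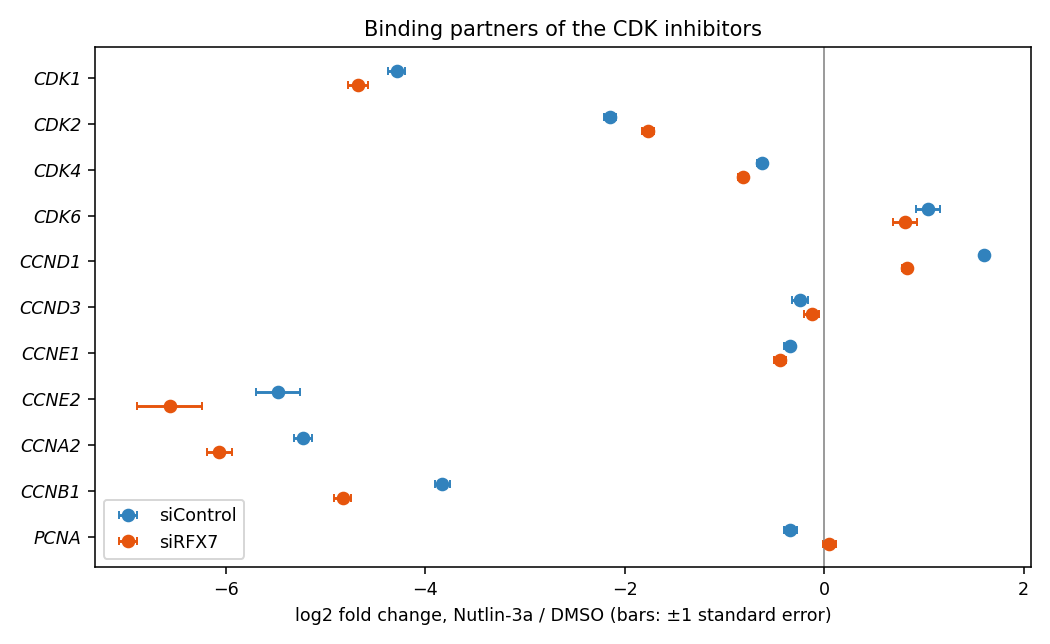
Log2 fold change with Nutlin-3a (x axis) of the 11 listed binding partners in siControl and siRFX7, with bars of 1 standard error. CCND1 and CDK6 lie above 0 under both siRNAs, and CCNA2, CCNB1, CCNE2 and CDK1 lie below -3.

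The level of CDKN1A per kilobase shifted against these partners. In siControl DMSO it was 1.86 times that of CDK2, and in siControl Nutlin-3a 182 times. Against PCNA the ratio was 0.24 (DMSO) and 6.69 (Nutlin-3a) with siControl, and 0.558 and 6.22 with siRFX7. These are ratios of RNA per kilobase and not of protein.

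The pocket proteins and E2F factors, which act downstream of the inhibited kinases, were all 12 listed. With Nutlin-3a 2 rose and 6 fell under siControl and 3 rose and 5 fell under siRFX7, from the authors' deposited tables, where 43.2% and 41.4% of all genes were called in either direction. The difference of the Nutlin-3a changes was called for 4 of the 12, against 6.20% of all genes, namely E2F7 (0.50), RB1 (0.39), TFDP2 (-0.34) and TFDP1 (0.22) by the z test. RB1, the retinoblastoma protein gene, rose, with log2 changes of 0.22 and 0.62 under the 2 siRNAs from the authors' deposited tables.

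Of 14 genes for the turnover of CDK inhibitor proteins, all listed, 2 rose and 6 fell under siControl and 2 rose and 8 fell under siRFX7 with Nutlin-3a, from the authors' deposited tables. Over all genes 43.2% and 41.4% were called in either direction. The difference was called for 4 of the 14, against 6.20% of all genes, namely CDC20 (-1.01), DTL (-0.73), CUL4B (-0.30) and RNF123 (-0.27) by the z test. DTL, the substrate adaptor of the CUL4 ligase that degrades p21, had log2 changes with Nutlin-3a of -5.05 (siControl) and -5.78 (siRFX7), from the authors' deposited tables. RNF123, a subunit of a ligase for p27, had 1.23 and 0.96, from the authors' deposited tables.

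Of 25 genes that regulate transcription of CDK inhibitor genes, all listed in the Nutlin-3a tables, 6 rose and 12 fell under siControl and 7 rose and 12 fell under siRFX7, from the authors' deposited tables, against 43.2% and 41.4% of all genes called in either direction. With siRFX7 in DMSO none of 24 rose and 15 fell (13.5% and 15.5% of all genes), and under Nutlin-3a 2 rose and 13 fell (15.0% and 13.6%), from the authors' deposited tables. At an unadjusted p below 0.05 of DESeq2 in the authors' deposited table, 0 of the 24 were higher in DMSO. The share of all genes at that unadjusted threshold was not computed, so this count has no background. The median of the 24 in DMSO was -0.22, beside -0.003 over all genes. MYC, a repressor of CDKN1A and CDKN2B, was lower with siRFX7, with log2 differences of -0.44 (DMSO) and -0.83 (Nutlin-3a) from the authors' deposited tables. With Nutlin-3a, where CDKN1A and CDKN2B also rose, MYC rose, with log2 changes of 0.87 (siControl) and 0.48 (siRFX7) from the authors' deposited tables. CDKN2B, like MYC, was lower with siRFX7, and CDKN1A was higher. Whether MYC had a part in these changes, at the promoters of CDKN1A and CDKN2B or elsewhere, was not tested. The partner of MYC at these promoters, ZBTB17 (MIZ1), had log2 differences of 0.09 (DMSO), which was not called, and -0.21 (Nutlin-3a), which was, from the authors' deposited tables. The difference of the Nutlin-3a changes was called for 5 of the 25, against 6.20% of all genes, namely TP73 (0.71), KLF6 (-0.45), KLF4 (0.44), MYC (-0.39) and ZBTB17 (-0.30) by the z test.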

How the data were processed

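RNA of 12 libraries was compared in 4 result tables, which the authors made with DESeq2. The submitters' processing notes name Trimmomatic 0.39, cutadapt 2.10, featureCounts 1.6.5, DESeq2 1.20.0 and the hg38 build. The aligner, annotation and strand setting are not given in the sources used here. Mean normalized counts are a signal, per the file headers, and, per the file headers, fold changes and their standard errors are log2 values. The statistic is a score, in the deposited tables the log2 fold change over its standard error. The p-value columns are those of the authors' test, adjusted by Benjamini-Hochberg over the genes of each deposited table.

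Genes were called at an adjusted p below 0.05. Shares of all genes include genes with a mean under 10 normalized counts, unlike most of the genes in the lists. The fold changes of the siRFX7 tables close with the others only when read as siRFX7 over siControl. Group means were recovered from mean normalized counts and fold changes, and size factors from the standard errors of genes with a mean of at least 100. The dispersion of each gene was then recovered from its own standard errors. The difference of the Nutlin-3a changes was put to a z test, two-sided, that takes the standard errors as known, adjusted over 23195 genes (scipy 1.17.1). In simulated data of 12463 genes, all with a mean of at least 100, 95.5% of 200 interactions of 1 on the log2 scale were called. The simulated standard errors were made with the true dispersions and size factors. The simulation therefore could not check standard errors estimated from 3 libraries a group. Intervals are 95% and from model errors. Counts per library were not analysed here, so no count model was fitted.

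Members and lists were chosen with earlier results of these data known. Named genes are all members, RFX7, and up to 5 genes per list with the largest called difference of Nutlin-3a changes. CDK1, CDK6 and CCNE2 in a caption, and CDKN2B-AS1, DINOL and ACTA2, are outside this rule and were named after their values were seen. The same holds for EPCAM, KRT8, KRT18, KRT19, KCNQ1OT1 and SLC22A18. The nearest genes are 5 for CDKN1A and 3 for each other member. CDKN1C had no promoter entry.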

Additional observations from a re-analysis of the deposited data

Results flagged for a closer look

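The Nutlin-3a effect on CDKN1A differed between siRFX7 and siControl, with a difference of log2 fold changes of -0.93 by the z test of the difference itself. It was the only one of the 7 members for which this test passed, against 6.20% of all genes. CDKN2C (-1.30, adjusted p 0.0587) also passed the z test among genes with a mean of at least 10 (0.0437) or in all 4 tables (0.0493). CDKN1A was already 2.44-fold higher with siRFX7 in DMSO. Its gain in normalized counts was larger in siRFX7 by 25852 (adjusted p 0.0487 by a z test added after the values were seen).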

How the results depend on the processing

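No paired analysis was possible because the tables hold comparisons of groups and no values per library, so a replicate block could not be fitted, and leaving out single replicates was not run for the same reason. Requiring at least 0.58 on the log2 scale left 5198 (siControl) and 4830 (siRFX7) genes for Nutlin-3a, 1547 (DMSO) and 1482 (Nutlin-3a) for siRFX7 and 544 for the interaction. With it 1 member remained called for siRFX7 in DMSO, CDKN1A, and 1 in Nutlin-3a, CDKN2C. A t distribution with 8 degrees of freedom left 3598 and 3347 genes for siRFX7 and 274 for the interaction, and an adjusted p below 0.01 left 863 for the interaction. With only genes of a mean of at least 10, or only genes in all 4 tables, 2 members were called for the interaction, CDKN1A and CDKN2C. With group totals made equal, the calls above 0 for the interaction went from 52.9% to 42.4%, with 1 member called as before. In normalized counts the CDKN1A difference reversed to 25852, close to the threshold (adjusted p 0.0487 by the added z test). Of the 35 log2 values of the members, 11 lost their call at the minimum of 0.58, 2 at an adjusted p below 0.01, 2 with the t distribution and 1 with equal totals. Means under 10 counts, as for CDKN2C in siRFX7 Nutlin-3a, limit what depth can show.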

Other observations

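Of 21 genes at the CDK inhibitor loci or of like name 17 were listed in the Nutlin-3a tables, of which 4 rose and 9 fell under siControl and 5 rose and 9 fell under siRFX7, from the authors' deposited tables, against 43.2% and 41.4% of all genes called in either direction. With siRFX7 15 were listed, of which 3 rose and 2 fell in DMSO (13.5% and 15.5% of all genes) and 3 rose and 1 fell under Nutlin-3a (15.0% and 13.6%), from the authors' deposited tables. The difference of the Nutlin-3a changes was called for 4 of the 17, against 6.20% of all genes, namely KCNQ1 (0.61), PHLDA2 (0.44), FAF1 (0.27) and MTAP (-0.18) by the z test.

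MTAP, the metabolic enzyme gene beside CDKN2A, had log2 changes with Nutlin-3a of -0.14 (siControl) and -0.32 (siRFX7), from the authors' deposited tables, while CDKN2A had -1.24 and -1.32 and CDKN2B 0.98 and 0.94. The antisense gene CDKN2B-AS1, named after its values were seen, had recovered means of 12.7 (DMSO) and 0.676 (Nutlin-3a) normalized counts with siControl and of 10.1 and 0.674 with siRFX7, the Nutlin-3a means lying under the level of 3 reads per library. In the imprinted cluster of CDKN1C on chromosome 11, PHLDA2 rose with Nutlin-3a, with log2 changes of 0.48 and 0.92 under the 2 siRNAs from the authors' deposited tables, where CDKN1C had log2 changes of -0.60 and -0.19. Other listed genes there went either way in those tables. SLC22A18 rose (0.72 and 0.70) and KCNQ1OT1 fell (-1.37 and -1.09). KCNQ1 was not called under siControl (-0.11) and rose under siRFX7 (0.50).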
